A study of Triticum aestivum with 4 samples.

Results

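SAHH, COMT1 and PEAMT1 are 3 wheat genes of methyl transfer, and the array data of flag leaves hold 4 probe sets for them among 61115 probe sets other than controls. They were picked by gene symbol or synonym from the platform annotation, with names updated from the table of RefSeq genes for the wheat assembly IWGSC CS RefSeq v2.1, and they are 3 of 771 genes with a symbol. SAHH (gene ID 543491) has 2 probe sets, called here the brighter and the dimmer one. COMT1 (LOC543449) and PEAMT1 (LOC543067) have 1 each. All 4 lay above the intensity floor of 12.3, the 50th percentile of all values pooled, on at least 1 array.

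S-adenosylmethionine gives the methyl group in most methylation reactions of the plant cell, and each transfer leaves S-adenosylhomocysteine, which inhibits methyltransferases. SAHH, S-adenosylhomocysteine hydrolase, splits that product into homocysteine and adenosine, so it keeps methylation going. COMT1, a caffeic acid O-methyltransferase, uses the methyl group in the synthesis of lignin building blocks, and PEAMT1, a phosphoethanolamine N-methyltransferase, uses it to make phosphocholine, the source of choline for membrane lipids and for glycine betaine.

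The leaves came from cultivar Yangmai 16 of bread wheat (Triticum aestivum), and each of the 4 groups was measured on 1 Affymetrix wheat array. PH leaves came from offspring of heat-primed parents and were heated after anthesis. NH leaves were heated too, but the parents had not been primed. PC and NC leaves were not heated, with primed parents for PC and unprimed parents for NC. Heated plants had days of 34 °C and nights of 30 °C, against days of 26 °C and nights of 22 °C for PC and NC, in each case over 6 days that began 10 days after anthesis. Priming of the parents meant days of 32 °C and nights of 28 °C, lasting 2 days each at 7 leaves and at 9 leaves, and later days of 34 °C and nights of 30 °C, lasting 7 days and likewise begun 10 days after anthesis. How many plants went into an array is not given in the sources used here. With no replicates, the values below have no replicate error and no p-value, and their precision is limited by the number of arrays. A difference is called when it reaches 2-fold, that is 1 on the log2 scale, after values under the floor were raised to it. The genes were chosen with their heat differences and their difference between PH and NH in view, so these values are a description.

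The arrays carry bright leaf signal, signal of some grain genes and little anther signal. The 5 flag leaf markers with a symbol here, rbcl, PsbO, PsbP, petC and PRK, had intensities of at least 1275 on every array. Their summed intensity was 33559 (PH), 25695 (NH), 43726 (PC) and 41386 (NC), so it was lower with heat, in the direction of the methyl transfer genes. Much of this sum is rbcl, with 15575 to 16875 on the 4 arrays. The other 4 markers summed to 17239 on PH and 10120 on NH, against 26851 on PC and 25184 on NC, so NH held 40.2% of NC and PH 64.2% of PC. All 5 leaf markers were higher on PH than on NH, the opposite of SAHH and COMT1 in that pair. Of 15 grain genes 6 were above the floor on some array, and the summed intensity of all 15 was 693 (PH), 1383 (NH), 479 (PC) and 446 (NC). That sum was higher with heat, opposite to the methyl transfer genes. The avenin-like gene avnlb made up most of it on PH, PC and NC, with 518 on PH and 571 on NH, against 394 on PC and 342 on NC. Another avenin-like gene, avnla, had 72.9 on PH and 659 on NH, against 9.50 on PC and 11.2 on NC. The other 4 measured grain genes, Gli-8, LMW-GS, THI1.1 and Serpin-Z2A, reached at most 49.9, and LMW-GS, a glutenin gene, was lower with heat, at 14.7 on PH and 18.9 on NH, against 22.8 on PC and 24.9 on NC. The remaining 9 grain genes, the gliadin genes Gli-3, Gli-D2 and Gli-G6 among them, were under the floor on every array. The anther gene raftin1a was under the floor on all 4 arrays, and raftin1b reached at most 16.8. The part of these shifts in the results was not tested. In whole leaves, fewer cells of a type and less RNA per cell cannot be told apart.

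With heat, all 4 probe sets of the 3 genes fell past 2-fold in both seed backgrounds. The brighter SAHH probe set had an intensity of 1012 on PH and 2267 on NH, against 4300.1 on PC and 5532 on NC. The dimmer SAHH probe set had 407 on PH and 1088 on NH, against 2087 on PC and 2945 on NC. COMT1 had 209 on PH and 491 on NH, against 881 on PC and 1208 on NC. In each of these probe sets, both heated leaves were below both unheated leaves, and PH was the lowest array and NC the highest. PEAMT1 had 4.24 on PH and 3.10 on NH, against 453 on PC and 526 on NC. It was thus well above the floor without heat and under the floor on both heated arrays.

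**Figure D1:**
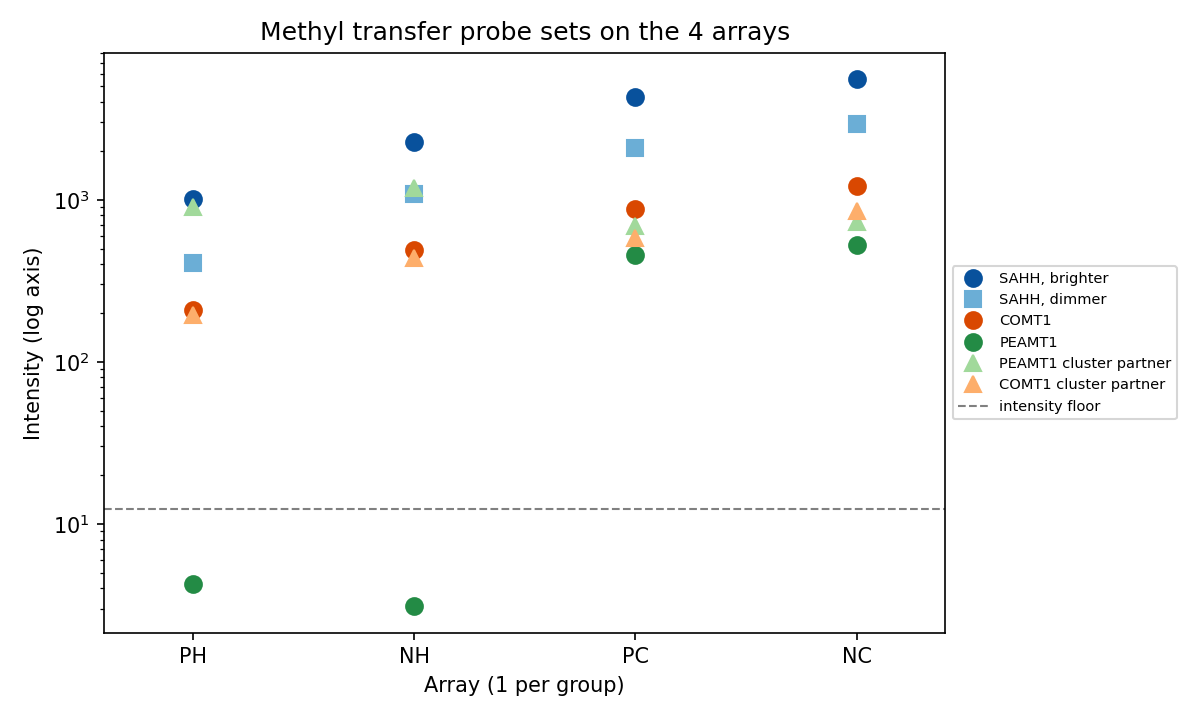
Intensity (log axis) of the 4 probe sets of SAHH, COMT1 and PEAMT1 and of 2 probe sets without a symbol from the same transcript clusters, 1 point per array, with the arrays PH, NH, PC and NC along the horizontal axis; the dashed line is the floor of 12.3. SAHH and COMT1 step up from PH to NC in the same order of arrays. PEAMT1 is under the floor on PH and NH, and the PEAMT1 cluster partner is highest on NH.

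In offspring of unprimed parents, SAHH fell 2.44-fold in NH at its brighter probe set and 2.71-fold at the other. COMT1 fell 2.46-fold, and PEAMT1 at least 42.8-fold, a bound set by the floor. On the linear scale NH held 41.0% and 36.9% of the NC intensity at the SAHH probe sets and 40.7% at the COMT1 probe set. Over the array, 10.5% of the 32695 probe sets above the floor in either fell past 2-fold in NH, so that a fall of this size was common. SAHH and COMT1 lay among the lowest 7.92% and 7.84% of these differences, and PEAMT1 among the lowest 0.132%. The choice of the genes used these values, and nothing is read from the count of 4 of 4.

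In offspring of primed parents, the falls of SAHH and COMT1 were wider on the deposited scale. With the arrays scaled on added poly-A control RNAs, this order turned, with log2 differences of -1.73 in P and -2.11 in N offspring for SAHH and of -1.72 and -2.13 for COMT1. That scaling moved the median of all measured probe sets to 0.36 in P and -0.64 in N offspring. Relative to these medians SAHH had -2.09 in P and -1.48 in N offspring, and COMT1 -2.08 and -1.49. The scaling multiplies all values of an array by 1 factor, so subtracting the median takes most of it out again. The order relative to the medians is therefore no separate check of the deposited scale. On the deposited scale, SAHH fell 4.25-fold and 5.13-fold in PH at its 2 probe sets, and COMT1 fell 4.22-fold. PH kept 23.5% and 19.5% of the PC intensity for SAHH and 23.7% for COMT1. PEAMT1 fell at least 36.9-fold, a smaller bound than in unprimed offspring, since PC was dimmer than NC and both heated arrays were set to the floor. The share of all probe sets that fell past 2-fold was 9.99% of 32454. Here SAHH and COMT1 lay among the lowest 2.96% and 2.98%, and PEAMT1 among the lowest 0.129%.

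The bound for PEAMT1 depends on the floor. With the floor at the 25th percentile (4.20) it was at least 125-fold for NH against NC, and 107-fold for PH against PC, where PH at 4.24 stood just above that floor. A floor at the 75th percentile (53.6) gave bounds of 9.81-fold and 8.46-fold. The position of a probe set within its own array needs no floor. PEAMT1 was under the median of all values on both heated arrays, where ranks among dim probe sets are not read, against brighter than 94.5% of probe sets on PC and 95.3% on NC. For the brighter SAHH probe set the shares were 97.7% on PH and 99.2% on NH, against 99.7% on PC and 99.9% on NC. SAHH thus stayed among the brightest probe sets of the heated leaves while losing most of its intensity. COMT1 was brighter than 89.2% of probe sets on PH and 94.6% on NH, against 97.2% on PC and 98.1% on NC.

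Measures of RNA quality, input and hybridization differed between the same arrays. The ratio of 3' to 5' signal of ubiquitin was 0.992 on PH and 0.929 on NH, against 0.750 on PC and 0.645 on NC. The other control genes had low signal, with a 5' signal of at most 26.0. For actin the ratio was 0.136 on PH and 0.135 on NH, against 0.173 on PC and 0.243 on NC. For gapdh it was 0.620 on PH and 0.443 on NH, against 0.482 on PC and 0.616 on NC. For ef1a the 5' signal was under the floor on every array, and its ratio is not read. For actin and gapdh the 3' signal was under the floor on every array, so their ratios are not read either. Only the ubiquitin ratio can be read, and it was higher on both heated arrays. The hybridization controls, 27 probe sets, had a median ratio of 0.829 for PH over PC and 0.857 for PH over NH. For NH over NC and for PC over NC it was 1.02. The added poly-A control RNAs, 36 probe sets, had a median ratio of 1.87 for NH over NC but 0.812 for PH over PC. With each array scaled on these controls, a setting added after the data were seen, the 4 probe sets still fell past 2-fold with heat in both backgrounds. The medians of all measured probe sets were then -0.64 for NH against NC and 0.36 for PH against PC. The part of the ubiquitin ratio and of the hybridization controls in the results was not tested.

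**Figure D2:**
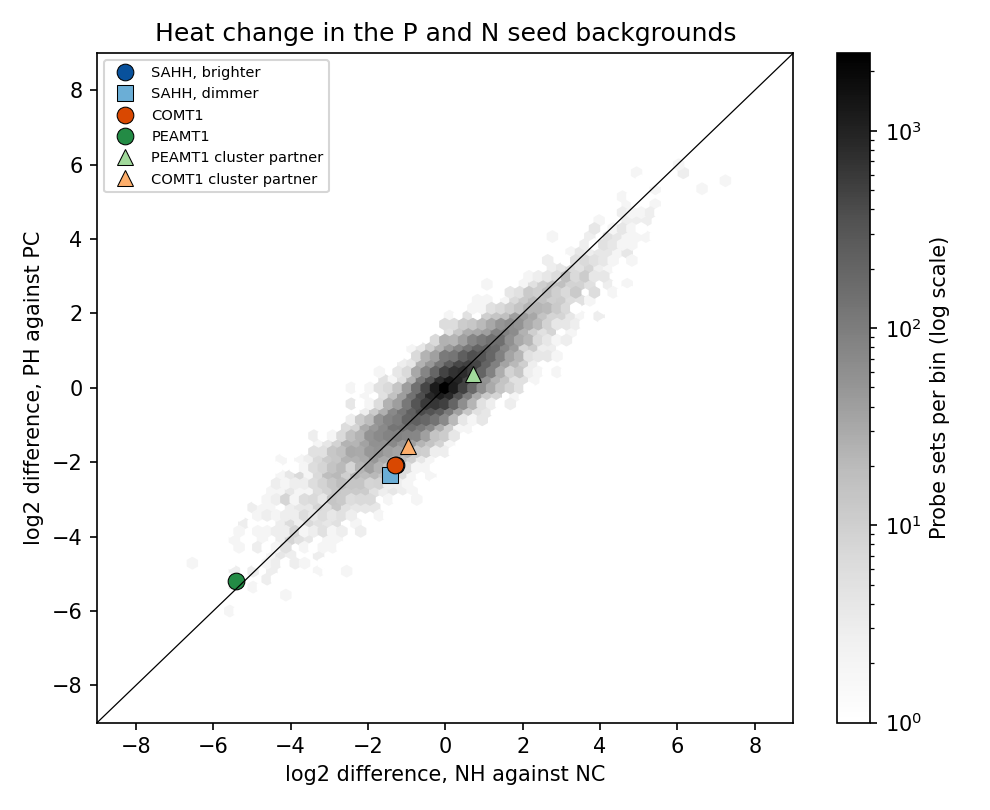
log2 difference of PH against PC (vertical) over that of NH against NC (horizontal) for 33561 probe sets above the floor on at least 1 array, shaded by the number of probe sets per bin on a log scale, with the probe sets of SAHH, COMT1 and PEAMT1 and their cluster partners as coloured points; the line marks equal heat changes. The point of the brighter SAHH probe set lies under that of COMT1; both genes sit below the line, at about -1.29 and -2.09, and PEAMT1 close to it at -5.42 and -5.21, both bounded by the floor.

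Without heat, PC and NC differed by less than 2-fold in the 3 genes, with PC the lower at each probe set. PC had 77.7% and 70.8% of the NC intensity at the SAHH probe sets, 73.0% for COMT1 and 86.2% for PEAMT1. The log2 differences were -0.36 and -0.50 for SAHH, -0.45 for COMT1 and -0.21 for PEAMT1, so 0 of 4 passed 2-fold, where 0.42% of 31915 probe sets were lower by that much. The differences of PC and NC were narrow over the whole array, with a 5th percentile of -0.41. COMT1 and the dimmer SAHH probe set lay past that percentile, and the brighter SAHH probe set and PEAMT1 did not.

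Under heat, SAHH and COMT1 were lower in PH than in NH. SAHH was 2.24-fold lower at the brighter probe set and 2.67-fold lower at the dimmer one, and COMT1 was 2.35-fold lower. PH kept 44.6% and 37.4% of the NH intensity for SAHH and 42.6% for COMT1. Over the array, 1.5% of 31462 probe sets were past 2-fold downward in this pair. The brighter SAHH probe set ranked 305 from the lowest, COMT1 252 and the second SAHH probe set 184. PEAMT1 was under the floor on both arrays, so no fold is given for it. The poly-A controls had a median ratio of 0.557 for PH over NH, in the same direction as SAHH and COMT1, and the median log2 difference of all measured probe sets was 0.00. With the arrays scaled on the poly-A controls, the median of all measured probe sets became 0.73, and SAHH and COMT1 had -0.35 and -0.41, no longer past 2-fold. Relative to that median they were at -1.08 and -1.15, but subtracting it takes most of the scaling out again, so these values are no separate check. Which of these scales holds for total RNA was not tested.

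The heat changes of SAHH and COMT1 differed between the backgrounds by almost the same amount. The change in P offspring minus that in N offspring was -0.80 and -0.92 for the SAHH probe sets and -0.78 for COMT1 on the log2 scale. These are under 2-fold, so 0 of 3 were called, where 2.27% of 33561 probe sets passed 2-fold downward. The brighter SAHH probe set lay among the lowest 4.06% and COMT1 among the lowest 4.40%. For PEAMT1 the difference is not measured, since both heated arrays were under the floor. With poly-A control scaling the sign turned, to 0.38 and 0.26 for SAHH and 0.41 for COMT1, against a median of 1.04 for all measured probe sets. This difference shares its arrays with each heat comparison and with PH against NH, so it is no separate result.

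**Figure D3:**
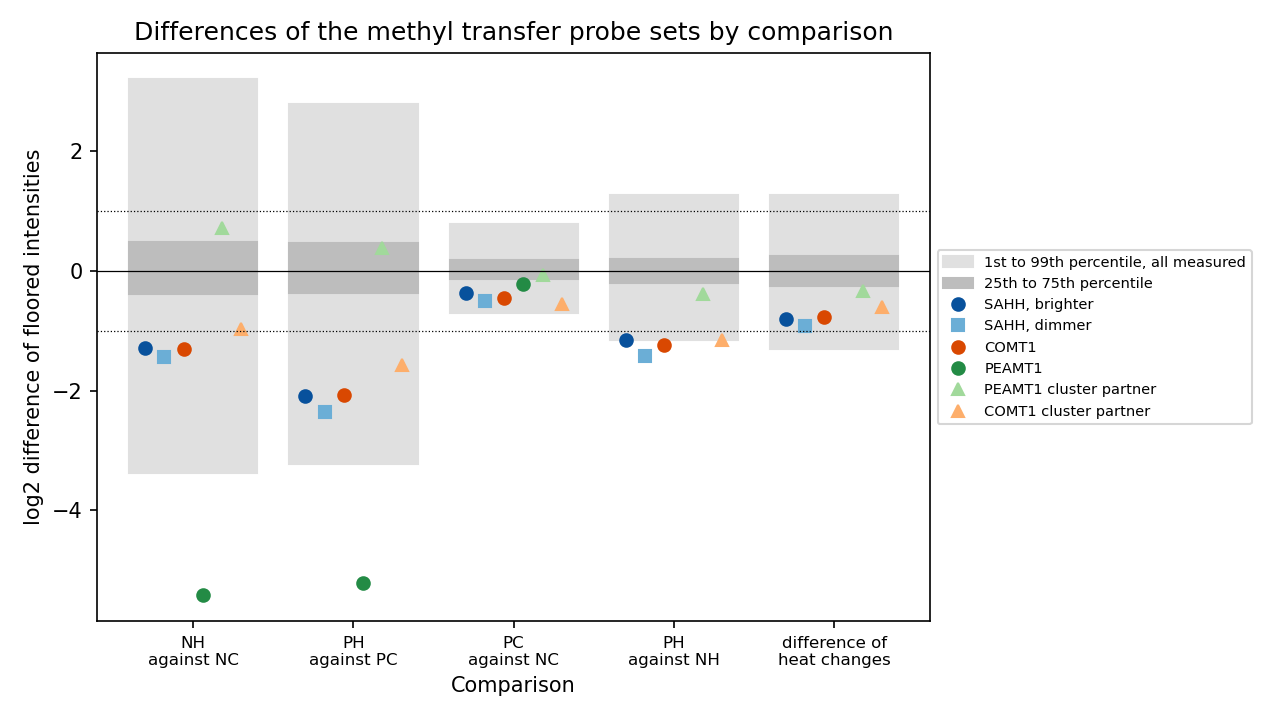
log2 differences (vertical) of the probe sets in each of 5 comparisons (horizontal) as coloured points, over grey bars for the 1st to 99th and the 25th to 75th percentile of all measured probe sets in that comparison; dotted lines mark 2-fold. SAHH and COMT1 points lie side by side below 0 in each comparison, and PEAMT1, not drawn for the last 2 comparisons because both heated arrays are under the floor, lies near -5 in both heat comparisons.

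SAHH and COMT1 had nearly the same profile over the 4 arrays. Each profile was centred on its own mean of log2 intensity, and the distance between profiles was taken as the Euclidean distance over the 4 arrays. The brighter SAHH probe set and the COMT1 probe set were 0.081 apart, and 0 of 33560 measured probe sets were closer to either. The other SAHH probe set was 0.29 from the first, with 5 probe sets closer to that one. PEAMT1 was far from SAHH, but its profile was set by the floor on both heated arrays, so no rank is given for it. A profile of 4 points with 1 array each holds few values, and all profiles share the same arrays. The genes were chosen with differences between these arrays in view, so the closeness of SAHH and COMT1 and its rank are a description.

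Among 609 other genes with a symbol, those nearest to SAHH and to COMT1 were the same 3. The closest was tubb3 (LOC543473), a beta-tubulin of the microtubules, 0.31 from SAHH and 0.39 from COMT1. It had 164 on PH and 309 on NH, against 774 on PC and 793 on NC. LOC543132, a locus without a functional name here, was 0.41 from SAHH and 0.40 from COMT1, with 149 on PH and 328 on NH, against 451 on PC and 658 on NC. LOC542994, also unnamed, was 0.63 and 0.65 away, with 46.0 on PH and 84.3 on NH, against 269 on PC and 343 on NC. These 3 genes also had lower values on both heated arrays than on both others. With PEAMT1 raised to the floor of 12.3 on both heated arrays, the genes nearest to it were LOC780599, LOC543436 and LOC542825; this choice depends on the floor, and other floors were not tried for it. LOC780599 had 25.1 on PH and 19.4 on NH, against 997 on PC and 803 on NC, close to the floor with heat.

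**Figure D4:**
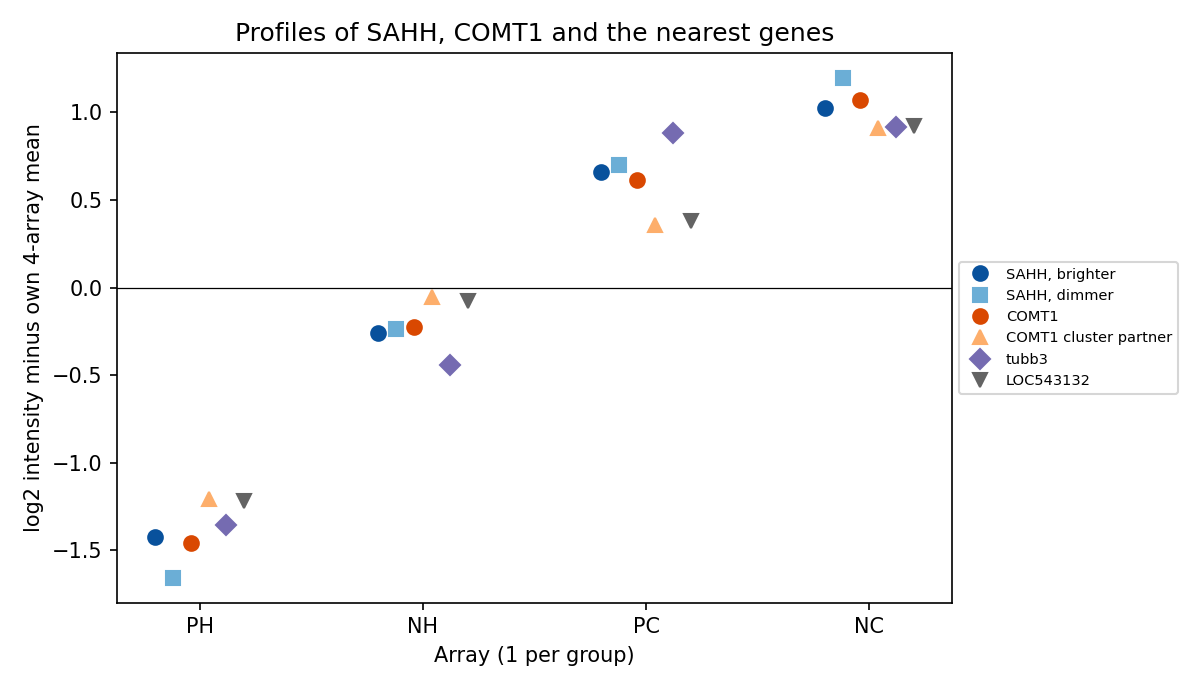
log2 intensity minus the mean over the 4 arrays (vertical) for the SAHH and COMT1 probe sets, the COMT1 cluster partner and the genes tubb3 and LOC543132, by array (PH, NH, PC, NC). The brighter SAHH and the COMT1 points nearly coincide on every array, the dimmer SAHH point lies lower on PH and higher on NC, and tubb3 parts from the brighter SAHH point most on PC.

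Some probe sets fell with heat in both backgrounds and were also lower in PH than in NH. Of 27473 probe sets above the floor on all 4 arrays, 2023 fell past 2-fold with heat in both backgrounds. Of these 2023, 51 (2.52%) were also lower by 2-fold or more in PH than in NH, and 222 (11.0%) were higher. Over the 31462 probe sets above the floor on either array of that pair, 1.5% were lower and 2.27% higher. Both SAHH probe sets and the COMT1 probe set, chosen with these values in view, were among the 51, and nothing is read from that. The other symbols in that set, singled out after their values were seen, were LOC543132 and LOC778392. LOC778392 had 301 on PH and 727 on NH, against 3091 on PC and 2543 on NC, and unlike SAHH and COMT1 it was brighter on PC than on NC. The NH array enters both a heat comparison and PH against NH, so these criteria are not independent.

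All 4 probe sets of the 3 genes have ID suffixes that mark probes able to match several transcripts or related sequences, which in hexaploid wheat can include the copies of a gene on its different subgenomes. The array has 2 further probe sets from the same transcript clusters, without a symbol and without such a suffix, and no gene name is given to them here. The partner in the COMT1 cluster had 195 on PH and 435 on NH, against 579 on PC and 850.0 on NC. It had the COMT1 order of arrays, with log2 differences of -0.97 in N and -1.57 in P offspring with heat, -0.55 for PC against NC and -1.15 for PH against NH. Its heat change in N offspring stopped just short of 2-fold, whereas those of PH against PC and PH against NH passed it.

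The partner in the PEAMT1 cluster went the other way from PEAMT1. It had 899 on PH and 1181 on NH, against 693 on PC and 724 on NC. Both heated arrays were above both unheated ones, with log2 differences of 0.71 in N and 0.38 in P offspring, under 2-fold. With poly-A control scaling the first turned to -0.12, against a median of -0.64 for all measured probe sets. Over all pairs of probe sets of a cluster, such a split was uncommon. Of 3380 ordered pairs of probe sets of a cluster in which the first was lower by 2-fold or more in NH than in NC, the second had a difference above 0 in 239 (7.07%) and was also lower by 2-fold or more in 63.4%. For PH against PC the share above 0 was 4.37% of 3477 pairs. These pairs include probe sets whose IDs share the sequence number within the cluster, whereas PEAMT1 and its partner differ in it. A share for pairs like theirs alone was not taken. The fall of PEAMT1 was thus measured at 1 probe set, while another probe set of its cluster had signal on the heated arrays.

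The 4 other genes found by symbol in methyl transfer and neighbouring pathways did not fall past 2-fold. A gene without a listed symbol or synonym could not be found in this way. A list of 53 symbols in 6 groups (the methionine and S-adenosylmethionine cycle, adenosine and adenine salvage, lignin and phenylpropanoids, choline and betaine, other methyltransferases, and polyamines, ethylene and mugineic acids) matched the 3 genes and 4 others, all measured. In the methionine cycle, lignin and choline groups the only match was 1 of the 3 genes itself, so no other gene there was assessed. Over the 4 others, 0 were lower and 2 higher by 2-fold or more in NH than in NC, with a median log2 difference of 0.84. Among the genes with a symbol, 18.3% of 605 were lower and 14.4% higher. With so few genes, a count of 0 lower is not set apart from such shares, and nothing is read from it. In PH against PC, 0 of the 4 passed 2-fold either way and their median was 0.54, where 17.1% of 601 genes were lower and 11.0% higher. In PC against NC, 0 of 4 passed as well, with a median of 0.11, where 1.83% of 602 genes were lower and 0.831% higher. In PH against NH, 0 of 4 passed, with a median of -0.05, where 5.24% of 572 genes were lower and 1.92% higher.

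PIMT, a protein isoaspartyl methyltransferase that repairs aged proteins and so uses S-adenosylmethionine too, had 128 on PH and 114 on NH, against 83.7 on PC and 53.0 on NC. It rose 2.15-fold in NH and had a log2 difference of 0.61 for PH against PC. DMAS1, deoxymugineic acid synthase, makes an iron chelator from a precursor derived from S-adenosylmethionine. Its brightest probe set had 365 on PH and 504 on NH, against 205 on PC and 234 on NC, and rose 2.15-fold in NH. Its other 2 probe sets had -0.09 and 0.55 for NH against NC, so the probe sets of DMAS1 disagree.

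APT1 and AdSS belong to adenine nucleotide metabolism, which the adenosine released by SAHH enters. APT1, adenine phosphoribosyltransferase, which turns adenine into AMP, had 1200 on PH and 1355 on NH, against 1162 on PC and 1130 on NC. Its 4 arrays lay close together, with log2 differences with heat of 0.26 in N and 0.05 in P offspring. AdSS, adenylosuccinate synthase of AMP synthesis, had 392 on PH and 373 on NH, against 282 on PC and 251 on NC. Both heated arrays were above both unheated ones for AdSS, by 0.58 in N and 0.47 in P offspring on the log2 scale, under 2-fold.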

How the data were processed

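The authors deposited 1 linear intensity per probe set and array, with 1 array per group from 6 µg of total RNA. Per the submitters' processing notes the tool was MAS5. The sources used here give neither its version, nor how arrays were scaled, nor detection calls. The labels name Cy3 but describe biotin-labelled cRNA. Of 61290 probe sets, 175 controls were left out. Values under the floor (12.3) were raised to it before log2, and a fold with a side under it is written "at least". Gene names came from the platform annotation, updated by gene ID: 1273 probe sets had 1 symbol, 0 several and 59842 none, and 770 of 771 genes matched the gene table, which gives no descriptive names, so lists are of symbols. Where a gene has several probe sets, the one with the highest mean log2 intensity stands for it.

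The members and lists were chosen with earlier results of these data known, and the symbols of the lists were written after the gene table was seen. Named are all probe sets of the 3 genes, their cluster partners, listed genes and the 3 nearest genes each. No test across samples was run. Alternatives were median scaling, quantile normalization, other floors, a pseudocount, a 3-fold threshold, gene means, probe sets without suffixes and, added later, poly-A control scaling. The counting was tested on simulated data. Scripts ran in Python 3.11.15 with pandas 2.3.3, numpy 2.4.6 and matplotlib 3.10.9.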

Additional observations from a re-analysis of the deposited data

Results flagged for a closer look

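The probe sets that share a transcript cluster with COMT1 or PEAMT1 have no symbol in the platform annotation and carried clear signal. The PEAMT1 partner had log2 differences of 0.71 for NH against NC and 0.38 for PH against PC, where PEAMT1 of the same cluster was under the floor on both heated arrays. The COMT1 partner had -0.97 and -1.57 for the same comparisons, in the direction of COMT1 but smaller in size than its -1.30 and -2.08.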

How the results depend on the processing

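SAHH and COMT1 kept their direction in each comparison under 7 alternatives, poly-A control scaling aside. Not all of these could move the values. The other floors and the 3-fold threshold left them unchanged, since every intensity of both genes was above 53.6. Gene means left COMT1 unchanged, since it has 1 probe set. The heat differences of both genes in N offspring lay between -1.36 and -1.21, and those in P offspring between -2.22 and -2.01. For PH against NH they lay between -1.29 and -1.15. At a 3-fold threshold their values of -1.29 and -1.30 (NH against NC) and of -1.16 and -1.23 (PH against NH) no longer passed. At that threshold 1 probe set of the 3 genes was lower in NH than NC and 0 in PH than NH. With poly-A control scaling, SAHH had -0.35 and COMT1 -0.41 for PH against NH, with 0 probe sets lower.

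The number of all probe sets lower by the threshold moved more. For heat in N offspring, heat in P offspring, priming without heat, priming with heat and the difference of the heat changes, in this order, it was 3440, 3241, 134, 472 and 761. It was 1916, 1651, 51, 133 and 166 at 3-fold, 2176, 2071, 63, 268 and 399 with the floor at the 75th percentile, and 2238, 2049, 82, 289 and 472 without suffixes, where fewer probe sets were tested. With the pseudocount the last 3 were 86, 314 and 459. With poly-A control scaling, NH against NC had 10082, PC against NC 413, PH against NH 83 and the difference 67. None of the 4 probe sets lacks a suffix, so that alternative gave no value for the 3 genes. No paired analysis was possible because each group has 1 array.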
